A study of Mus musculus with 6 samples.

Results

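The skin kallikreins Klk5, Klk6, Klk7, Klk8, Klk10, Klk11, Klk12, Klk13 and Klk14 and the kallikrein inhibitor gene Spink5 are described here in epithelial cells sorted from the back skin of newborn mice. The labels call them hair follicle cells, while the protocol text describes an interfollicular gate, so which epithelial cells were sequenced is not settled. The 10 genes were chosen by name as proteases of desquamation and their inhibitor, and each has 1 of the 24453 rows of the deposited count files. RNA was sequenced from 3 libraries labelled Ring1a/b 2KO, of genotype Ring1a-/- Ring1b-/-, and from 3 libraries whose genotype is given only as Control. All 6 came from skin of postnatal day 0. Ring1a and Ring1b, listed as Ring1 and Rnf2, encode the ubiquitin ligase subunits of Polycomb repressive complex 1, which holds genes of other lineages silent, and the comparison asks what changes when both are lost. The strain, sex, any Cre driver, the alleles of the controls and the number of animals in a library are not stated in the labels, so p-values measure the spread between these libraries, which may in part be technical.

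Kallikreins are secreted serine proteases made as inactive precursors, and their genes lie side by side in a cluster. In the outer epidermis, KLK5 and KLK7 between them cleave the proteins that hold corneocytes together, desmoglein 1, desmocollin 1 and corneodesmosin, so that the surface cells can be shed. Spink5 encodes LEKTI, a chain of Kazal-type domains that is processed into fragments which inhibit KLK5, KLK7 and KLK14; loss of the human gene causes Netherton syndrome, with a fragile and leaky skin barrier.

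The libraries held 24.8 to 29.9 M counts in the 2KO group and 28.2 to 30.8 M in the control group (M, mega), so that 1 count was worth 0.0323 to 0.0392 CPM (counts per mega of counts, scaled by TMM). Ring1 stood at 1.84, 7.34 and 14.1 CPM in 2KO replicates 1, 2 and 3 and at 19.5, 22.4 and 3.37 CPM in control replicates 1, 2 and 3, and Rnf2 at 75.3, 66.4 and 89.1 CPM in 2KO against 67.6, 79.4 and 47.1 CPM in control. Neither separated the groups (edgeR adjusted p = 0.537 and 0.615). Ring1 went against the labels in that control replicate 3 lay below 2KO replicates 2 and 3. The groups are therefore called by their labels. The labels do not name the deleted part of either gene. Xist, transcribed from the inactive X chromosome of females, stood at 5360, 4950 and 10.4 CPM in 2KO replicates 1, 2 and 3 and at 2.48, 9.26 and 4550 CPM in control replicates 1, 2 and 3, and the Y-linked Ddx3y was high in the other 3 libraries. Both groups thus held both patterns, in different proportion, and with Xist as a covariate no member passed the threshold either. Krt14, a basal keratin, stood at 2850 to 4080 CPM in 2KO and 1470 to 4070 CPM in control, and Epcam, used in the sort, at 243 to 358 and 165 to 255 CPM. Ly6a, which encodes the sorted antigen Sca1, was low, at 1.92 to 7.27 CPM in 2KO and 3.01 to 5.62 CPM in control. Of 20 markers of suprabasal and granular keratinocytes, the layers in which kallikreins are known to be made, 18 were lowest in replicate 1 within the 2KO group and 20 were lowest in replicate 1 within the control group. Their mean log2(CPM + 0.5) was 3.68, 5.72 and 5.04 in 2KO replicates 1, 2 and 3 and 3.61, 5.44 and 5.39 in control replicates 1, 2 and 3. Of the 20, 1 rose in 2KO (Krt2) and 2 fell (Krt77 and Tgm3), and their summed level was 1570 to 4600 CPM in 2KO and 3360 to 12200 CPM in control, with none at 0 in all libraries. Of 12 hair follicle markers 6 fell in 2KO and none rose, Krt25 being at 0 counts in 2KO, and of 7 tested dermal fibroblast markers 1 rose. For these counts, the background over all tested genes was 6.61% higher and 2.42% lower in 2KO. The part of these markers in the results for the kallikreins was not tested. In bulk libraries, fewer cells of a type and less RNA per cell cannot be told apart.

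None of the 8 members with enough counts to be tested passed the threshold between the libraries labelled 2KO and control, in either direction (edgeR quasi-likelihood test, Benjamini-Hochberg adjusted p under 0.05 over 14972 genes). The background was 9.02% of the tested genes called, 6.61% higher and 2.42% lower in 2KO. At an unadjusted p under 0.05 there was 1 member, Klk10, where 21.6% of tested genes passed. With limma-voom 0 of 8 members passed, beside 1031 genes higher and 402 lower of 14972. With DESeq2 1 of 10 did, Klk6, which was too low for the edgeR fit, beside 1497 genes higher and 771 lower of 19888. Of the 8, 4 had a fold change above 0 and 4 below, and the median log2 fold change was 0.12 against -0.02 over all tested genes. Groups did not overlap for 2 of the 8, Klk10 and Klk13, both lower in 2KO, against a background of 28.4% without overlap. Klk6 and Klk14 were not tested.

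Levels can be set against each other only per length, here as CPM per kb of annotated exon. In the libraries labelled 2KO the order was Klk10 (21.9 ± 6.09), Klk7 (20.1 ± 12.7), Spink5 (16.0 ± 13.1), Klk11 (12.3 ± 5.03), Klk5 (11.7 ± 3.17), Klk8 (6.35 ± 0.848), Klk12 (2.39 ± 1.07), Klk13 (1.45 ± 0.913), Klk6 (1.35 ± 1.43) and Klk14 (0 counts), as mean ± SD with n = 3. In the libraries labelled control it was Klk10 (35.9 ± 6.91), Klk7 (21.6 ± 13.5), Klk11 (19.1 ± 3.71), Klk5 (6.85 ± 4.46), Spink5 (5.56 ± 3.78), Klk8 (4.11 ± 1.80), Klk13 (3.46 ± 0.833), Klk12 (1.88 ± 0.777), Klk6 (0.114 ± 0.101) and Klk14 (0.0855 ± 0.107). Neighbours in these orders had overlapping ranges, except Klk5 and Klk8, Klk8 and Klk12, and Klk6 and Klk14 in 2KO, and Klk11 and Klk5, and Klk12 and Klk6 in control. Klk10 led in both groups on average, and Spink5 had rank 3 in 2KO and rank 5 in control.

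**Figure D1:**
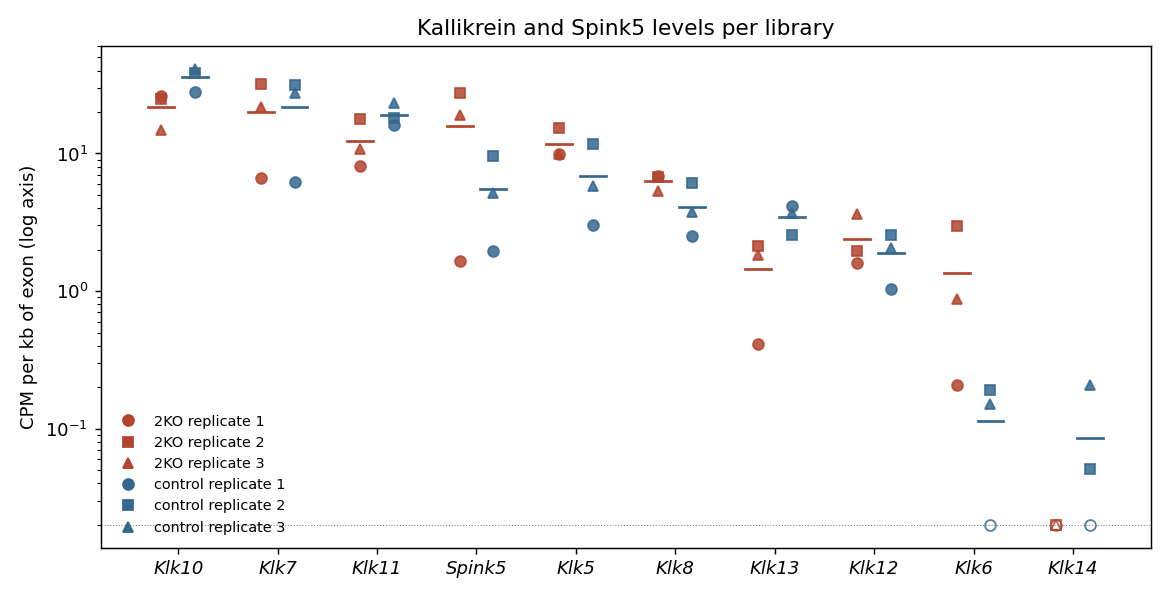
Level of each member in each library, in CPM per kb of exon on a log axis. Symbols give the replicate, short lines the group mean, and open symbols on the dotted line 0 counts. Klk6 in 2KO lies above all control libraries, Klk10 and Klk13 in 2KO lie below them, and replicate 1 is the lowest library for Klk7 and Spink5 in both groups.

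Spink5 (chromosome 18, 43963235 to 44022501, GRCm38, plus strand), the inhibitor, had the largest mean difference of the tested members and also the largest spread. It stood at 7.96, 130 and 90.6 CPM in 2KO replicates 1, 2 and 3 and at 9.43, 45.5 and 24.8 CPM in control replicates 1, 2 and 3. Replicates 2 and 3 of 2KO were above every control library, while 2KO replicate 1 was the lowest of all 6, so that the groups overlapped. The log2 fold change was 1.52 (SE 0.82, 95% interval -0.32 to 3.36, edgeR adjusted p = 0.330), which misses the threshold and does not show that the levels were alike. Without 2KO replicate 1 it was 2.07 and passed (edgeR adjusted p = 0.0471), and with replicate 1 of both groups left out it was 1.67 (SE 0.33, edgeR adjusted p = 0.0265), a comparison of 2 libraries with 2. Without 2KO replicate 2, the highest library, it was 0.91 (edgeR adjusted p = 0.667). Over the 16 alternatives tried the adjusted p ran from 0.0265 to 0.667 and the log2 fold change from 0.91 to 2.15, positive in each. Within each group, Spink5 and the mean log2 level of the suprabasal markers were both lowest in replicate 1 and highest in replicate 2. In control replicates 2 and 3 that mean was nearly equal, at 5.44 and 5.39. The summed marker level was higher in control replicate 3 (12200 CPM) than in control replicate 2 (9870 CPM), unlike Spink5.

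**Figure D2:**
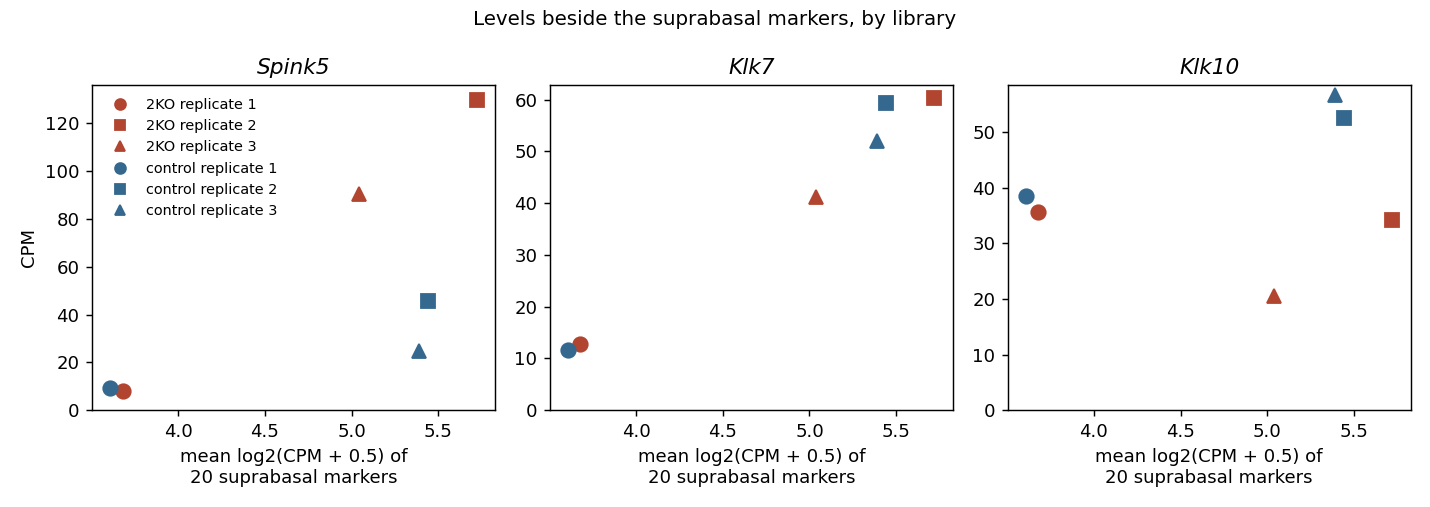
Level of Spink5, Klk7 and Klk10 in CPM against the mean log2(CPM + 0.5) of 20 suprabasal and granular markers, 1 point per library. The replicate-1 libraries lie at the left, at 3.68 in 2KO and 3.61 in control. Spink5 at 130 and 90.6 CPM in 2KO replicates 2 and 3 lies above the control libraries, Klk7 does not separate the groups, and Klk10 lies lower in 2KO.

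**Figure D3:**
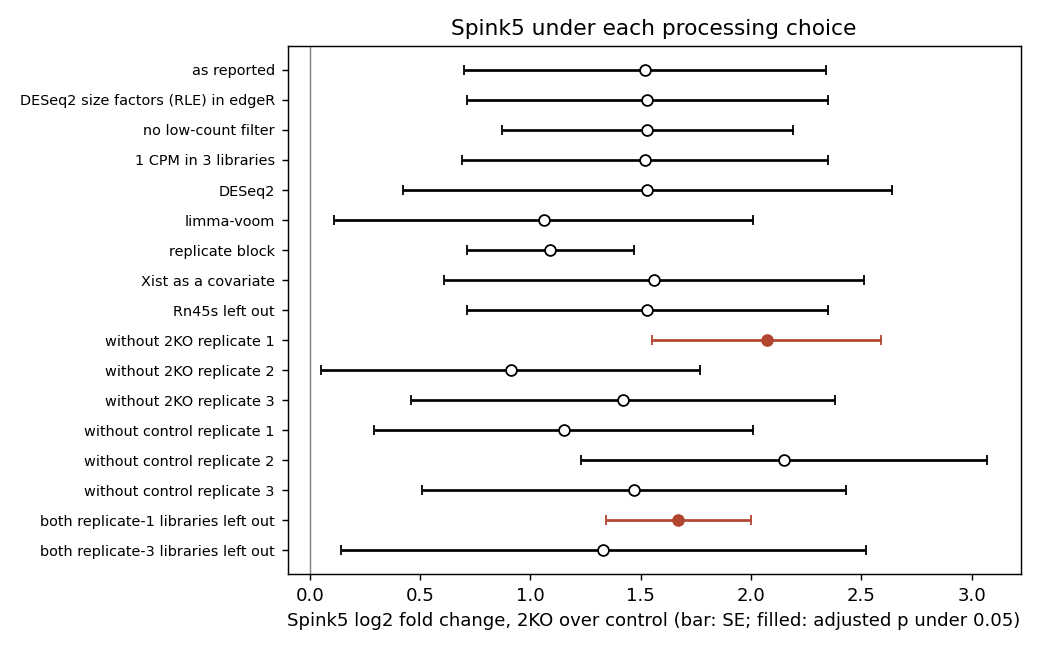
Spink5 log2 fold change of 2KO over control, with its SE, as reported and under 16 other processing choices. Filled points have an adjusted p under 0.05, which holds in 2 of the 16, without 2KO replicate 1 (2.07) and with replicate 1 of both groups left out (1.67). Without 2KO replicate 2 it is 0.91.

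Klk5 and Klk7 are the proteases most directly tied to shedding. Klk5 (chromosome 7, 43841971 to 43851181), a trypsin-like protease that activates other kallikreins, stood at 13.2, 20.6 and 13.3 CPM in 2KO and 4.01, 15.7 and 7.78 CPM in control. Control replicate 2 lay within the 2KO range, and the other control libraries lay below it (log2 fold change 0.78, 95% interval -0.26 to 1.81, edgeR adjusted p = 0.385). Klk7 (43811294 to 43816359), a chymotrypsin-like protease that cleaves corneodesmosin, stood at 12.7, 60.4 and 41.1 CPM in 2KO and 11.7, 59.3 and 52.0 CPM in control. Its groups lay over each other, with replicate 1 low in both (log2 fold change -0.11, 95% interval -1.50 to 1.28, edgeR adjusted p = 0.956). Klk14 (43690418 to 43695536), an activator of other kallikreins and a LEKTI target, had 0 counts in every 2KO library, where a count of 0 allows up to 0.037 CPM over the group, and 0, 2 and 8 counts in control. No difference in Klk14 was detectable at this depth.

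Klk10, Klk11 and Klk13 were the kallikreins with fold changes below 0 beside Klk7. Klk10 (43781035 to 43785410), a kallikrein made by many epithelia, stood at 35.7, 34.2 and 20.5 CPM in 2KO and 38.6, 52.6 and 56.7 CPM in control. Every 2KO library was below every control library, though 2KO replicate 1 and control replicate 1 were close (log2 fold change -0.71, SE 0.27, edgeR adjusted p = 0.152, with a range of 0.0502 to 0.533 over the 16 alternatives). Klk13 (43712567 to 43727534) stood at 0.941, 4.84 and 4.23 CPM in 2KO and 9.57, 5.84 and 8.43 CPM in control, again without overlap (log2 fold change -1.25, SE 0.57, edgeR adjusted p = 0.242). Klk11 (43774604 to 43779263), a trypsin-like protease, stood at 11.9, 26.2 and 15.9 CPM in 2KO and 23.6, 26.4 and 34.1 CPM in control, with 2KO replicate 2 inside the control range (log2 fold change -0.64, SE 0.32, edgeR adjusted p = 0.288).

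Klk8 and Klk12 had fold changes above 0. Klk8 (43797577 to 43803826), also called neuropsin and known in skin and hippocampus, stood at 10.6, 10.4 and 8.27 CPM in 2KO and 3.86, 9.33 and 5.82 CPM in control. Control replicate 2 overlapped the 2KO range (log2 fold change 0.63, SE 0.38, edgeR adjusted p = 0.402). Klk12 (43768897 to 43773585) was low throughout, at 1.92, 2.34 and 4.31 CPM in 2KO and 1.24, 3.07 and 2.45 CPM in control (log2 fold change 0.34, SE 0.58, edgeR adjusted p = 0.811). The sign for Klk12 turned without 2KO replicate 3 (-0.06).

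Klk6 (43824499 to 43832030), a trypsin-like protease best known from the nervous system, was close to silent in the libraries labelled control. It had 8, 134 and 34 counts in 2KO and 0, 9 and 7 counts in control, or 0.314, 4.47 and 1.33 CPM in 2KO against 0, 0.290 and 0.229 CPM in control. Each 2KO library was above each control library, but 2KO replicate 1 exceeded control replicate 2 by less than 1 count's worth of CPM. With no low-count filter the log2 fold change was 3.53 (SE 1.22, edgeR adjusted p = 0.0974), and with DESeq2 it was 3.56 (SE 1.17, DESeq2 adjusted p = 0.0216). The adjusted p ran from 0.0216 to 0.255 over the 7 alternatives that held the gene, and DESeq2 was the 1 that passed. The fits without 2KO replicate 2 or 3, its highest libraries, did not keep the gene. The range thus covers only fits in which both were present, and how far the difference rests on either was not tested.

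**Figure D4:**
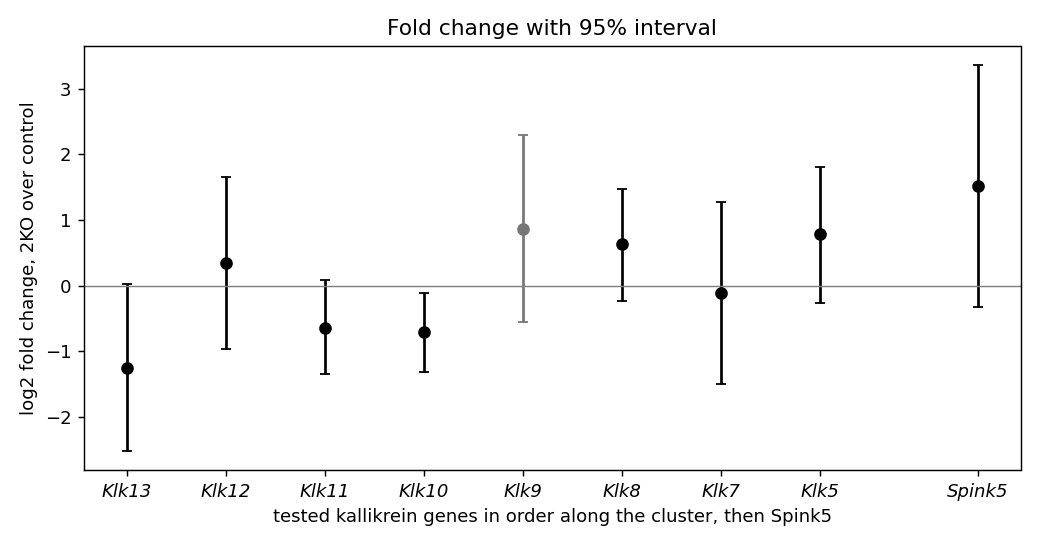
Log2 fold change of 2KO over control with its 95% interval for the tested kallikreins in their order along chromosome 7, followed by Spink5. Klk9, in grey, belongs to the cluster but not to the chosen members. Klk13, Klk11, Klk10 and Klk7 lie below 0, Klk12, Klk9, Klk8, Klk5 and Spink5 above it, with signs mixed along the cluster, and no gene passed the adjusted threshold.

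The make-up of the kallikrein transcripts within a library is independent of how the libraries were scaled. Klk5 made up 16.5%, 14.8% and 14.4% of the summed per-length level of the 9 kallikreins in 2KO and 4.91%, 10.6% and 5.41% in control. Klk8 made up 11.5%, 6.53% and 7.77% in 2KO and 4.11%, 5.47% and 3.51% in control. With Klk6, these were 3 of 9 kallikreins whose shares were higher in every 2KO library than in any control library, and none had a lower share in every 2KO library. For CPM levels, the background was 15.2% of tested genes with every 2KO library above every control library. The shares sum to 100, so one cannot rise without another falling, and 3 libraries against 3 cannot give an exact permutation p under 0.1. Klk10 took 43.4%, 24.0% and 21.6% in 2KO and 46.0%, 34.6% and 38.3% in control, the largest share in each library but 2KO replicates 2 and 3, in which Klk7 was larger (30.7% and 31.4%). Klk5 per length was 0.381, 0.619 and 0.666 times Klk10 in 2KO and 0.107, 0.306 and 0.141 times in control, without overlap. That ratio draws on the same Klk5 and Klk10 values as the shares and adds no separate support. No background was computed for shares or ratios. Against Klk7, Klk5 per length was 1.48, 0.483 and 0.458 times in 2KO and 0.486, 0.375 and 0.212 times in control, and the groups overlapped. The level of the inhibitor Spink5 was 0.0278, 0.263 and 0.274 times the summed kallikreins in 2KO and 0.0323, 0.0859 and 0.0482 times in control, with 2KO replicate 1 below all others. Spink5 over Klk5 and over Klk7 alone overlapped between groups too.

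**Figure D5:**
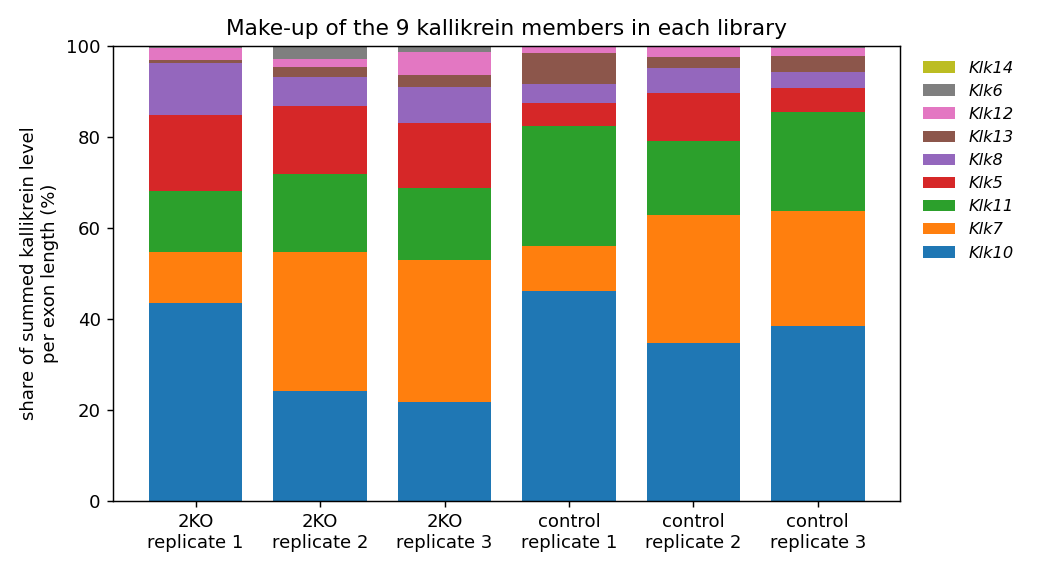
Share of each kallikrein in the summed per-length level of the 9 members, 1 bar per library. Klk5 takes 14.4% to 16.5% in the libraries labelled 2KO and 4.91% to 10.6% in those labelled control.

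The promoters show how CpG sites are spread over the family, and Polycomb repressive complex 1 is known to occupy CpG-rich promoters; its binding was not measured here. RefSeq promoter windows (GRCm38.p6, 250 bases before to 50 after a gene start) matched 9 of the 10 members by symbol with 11 windows; Spink5 did not match. The windows held 0 to 23 CpG sites, and 9 of 11 were below the median of 7 over 32851 mouse windows. Klk8 had 23, more than 78.5% of all windows, while Klk10 and Klk13 had 2 each and Klk5 had 5. The 2 members close to silent in control differed, with 0 in the window of Klk14 and 8 and 3 in the upstream and downstream windows of Klk6. The windows of Klk8, Klk6 (upstream), Klk10 and Klk13 are shown 5′ to 3′ on the plus strand, with CpG sites in capitals: the most CpG-rich window and those of the 3 members whose levels did not overlap between groups.
Klk8, chr7:43797327-43797626: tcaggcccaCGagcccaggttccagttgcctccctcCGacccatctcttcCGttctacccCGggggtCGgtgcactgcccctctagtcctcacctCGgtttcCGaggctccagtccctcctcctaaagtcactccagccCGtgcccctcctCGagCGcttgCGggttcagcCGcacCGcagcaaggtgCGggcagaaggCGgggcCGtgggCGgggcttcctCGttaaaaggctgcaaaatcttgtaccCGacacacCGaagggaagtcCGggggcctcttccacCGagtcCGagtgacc
Klk6, chr7:43824294-43824593: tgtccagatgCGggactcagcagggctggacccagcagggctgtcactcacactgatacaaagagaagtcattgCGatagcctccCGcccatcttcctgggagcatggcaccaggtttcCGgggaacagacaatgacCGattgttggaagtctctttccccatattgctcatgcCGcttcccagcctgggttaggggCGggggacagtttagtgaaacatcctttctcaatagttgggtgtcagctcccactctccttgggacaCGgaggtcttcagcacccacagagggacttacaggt
Klk10, chr7:43780804-43781103: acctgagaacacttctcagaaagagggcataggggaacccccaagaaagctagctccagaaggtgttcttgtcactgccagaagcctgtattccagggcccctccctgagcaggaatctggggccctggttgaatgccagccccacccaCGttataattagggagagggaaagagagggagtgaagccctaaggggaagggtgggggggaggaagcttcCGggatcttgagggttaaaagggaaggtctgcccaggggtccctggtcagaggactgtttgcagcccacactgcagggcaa
Klk13, chr7:43712317-43712616: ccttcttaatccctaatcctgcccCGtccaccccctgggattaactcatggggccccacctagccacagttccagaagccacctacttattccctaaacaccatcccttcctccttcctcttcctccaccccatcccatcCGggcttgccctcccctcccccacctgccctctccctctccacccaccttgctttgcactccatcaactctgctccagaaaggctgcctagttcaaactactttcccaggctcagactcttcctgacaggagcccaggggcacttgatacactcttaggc

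Both strands of the windows were searched for 6 motifs, and no match of one overlapped a match of another. The GC box GGGCGG was found in windows of Klk6, Klk7 and Klk8 and in 35.7% of all windows, and the E-box CACCTG in those of Klk5, Klk11, Klk12 and Klk13 and in 20.2% of all. The C/EBP motif TTGCNNAA was found in both Klk11 windows and in 10.8% of all. The TATA box TATAAA, found in 13.6% of all windows, had no match in the 11. Nor had the AP-1 motif TGANTCA, found in 7.81% of all, or the grainyhead motif AACNGGTT, found in 2.09%. A match is a description of letters and not a bound site.

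In the rest of the cluster, Klk9 was the 1 other gene with enough counts to be tested. Klk9 (43791891 to 43796757), between Klk10 and Klk8, stood at 7.41, 42.9 and 16.8 CPM in 2KO and 4.86, 19.9 and 12.0 CPM in control (log2 fold change 0.87, SE 0.63, edgeR adjusted p = 0.495). Without 2KO replicate 2 the log2 fold change was 0 (SE 0.58, edgeR adjusted p = 0.999). As with Klk7, replicate 1 was the lowest library in each group. Of the other 17 genes, 10 had 0 counts in all 6 libraries and 7 had at most 11 counts in all. The 15 glandular genes Klk1 and Klk1b (with the pseudogene Klk1b7-ps), near-identical copies that may share reads, had 10 counts in 2KO, each from replicate 3, and 1 count in control. The transcript 2310002F09Rik runs along the opposite strand from Klk14 to Klk8 and shares exon sequence with Klk8 and Klk14. It stood at 6.48 ± 2.32 CPM in 2KO and 8.10 ± 1.23 CPM in control (SD, n = 3 each, edgeR adjusted p = 0.691), and without a stated strand setting its reads cannot be told from those of Klk8 and Klk14 where they overlap.

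Among 22 other epidermal proteases, 19 were tested, 1 was higher and 1 lower in 2KO. Over all tested genes, 6.61% were called higher and 2.42% lower. Tmprss4, a membrane-anchored serine protease, fell to 3.57, 5.90 and 3.69 CPM in 2KO, against 28.9, 60.7 and 55.7 CPM in control. The groups were well apart (log2 fold change -3.46, SE 0.36, edgeR adjusted p = 0.000898), with a pass in each of the 16 alternatives. Pcsk6, a proprotein convertase, rose to 44.2, 31.3 and 41.3 CPM in 2KO, against 24.7, 17.4 and 14.8 CPM in control (log2 fold change 1.04, SE 0.26, edgeR adjusted p = 0.0383). Its call was lost without 2KO replicate 1 (edgeR adjusted p = 0.0864) or 3 (0.0923), without control replicate 2 (0.121) or 3 (0.139) and with replicate 3 of both groups left out (0.258). By mean CPM over the 6 libraries, which is not adjusted for length, the highest were the lysosomal cathepsins Ctsd (346 ± 100 CPM in 2KO and 253 ± 29.5 in control), Ctsb (189 ± 18.5 and 248 ± 23.4) and Ctsl (172 ± 33.7 and 189 ± 102), none past the threshold (edgeR adjusted p = 0.284, 0.191 and 0.871).

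Of 18 other protease inhibitors, 11 were tested, 2 rose in 2KO and none fell, beside 6.61% higher and 2.42% lower over all tested genes. Serpine2, protease nexin 1, an inhibitor of thrombin and plasminogen activators, rose to 130, 110 and 90.9 CPM in 2KO, against 8.97, 11 and 16.2 CPM in control. That was a log2 fold change of 3.19 (SE 0.28, edgeR adjusted p = 0.00036), past the threshold in all 16 alternatives. Tinagl1, a matrix protein related to cathepsins and placed with the inhibitors although it is not an established one, rose to 38.2, 12.8 and 11.8 CPM in 2KO, against 3.83, 6.03 and 3.40 CPM in control (log2 fold change 2.24, SE 0.49, edgeR adjusted p = 0.0214). It lost its call without 2KO replicate 1 (edgeR adjusted p = 0.05), control replicate 1 (0.0672) or control replicate 3 (0.0766), with either replicate number left out in both groups (0.0992 for 1 and 0.102 for 3), and with Xist as a covariate (0.108). Its log2 fold change was 1.49 without 2KO replicate 1 and 1.40 without replicate 1 of both groups. Spint1 and Spint2, inhibitors of the protease matriptase, stood at 101 ± 16.8 and 63.9 ± 11.2 CPM in 2KO and at 65.6 ± 7.09 and 67.4 ± 6.93 CPM in control (edgeR adjusted p = 0.0838 and 0.881).

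Of 17 substrates and receptors, 16 had a row and 12 were tested, of which 2 rose in 2KO and none fell. The background over all tested genes was 6.61% higher and 2.42% lower. F2r, the protease-activated receptor PAR1, rose to 157, 146 and 142 CPM in 2KO, against 94.5, 110 and 84.5 CPM in control. Its adjusted p was at the threshold (log2 fold change 0.62, SE 0.17, edgeR adjusted p = 0.0498). The call was lost whichever library was left out (0.0961, 0.113 and 0.0746 without 2KO replicates 1, 2 and 3, and 0.108, 0.0705 and 0.202 without control replicates 1, 2 and 3). F2rl1, the receptor PAR2 that KLK5 activates, stood at 343, 224 and 179 CPM in 2KO and 141, 148 and 140 CPM in control, without overlap but short of the threshold (log2 fold change 0.80, SE 0.23, edgeR adjusted p = 0.0653). It passed in 4 of the 16 alternatives, among them DESeq2 (DESeq2 adjusted p = 0.0241), no low-count filter (edgeR adjusted p = 0.0331) and without 2KO replicate 3 (0.0276). The cleaved adhesion proteins did not pass. Dsg1a stood at 87.3, 129 and 221 CPM in 2KO and 156, 393 and 312 CPM in control (edgeR adjusted p = 0.172). Dsg1b, another desmoglein 1 gene, went the other way, at 92.6, 157 and 184 CPM in 2KO and 70.5, 149 and 139 CPM in control (log2 fold change 0.27, edgeR adjusted p = 0.706). Dsc1, desmocollin 1, had a log2 fold change of -0.43 (edgeR adjusted p = 0.781). Cdsn, corneodesmosin, stood at 3.72, 83.6 and 26.2 CPM in 2KO and 1.38, 21.6 and 17.4 CPM in control (edgeR adjusted p = 0.463), with replicate 1 lowest in each group as for Spink5.

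The genes whose log2 CPM was most like that of Klk10, the member with the highest level per length, over the 6 libraries were Ifi35 (Pearson's r = 0.9963), Meaf6, Wrb, Myl6b and Fam96a (0.9809). For Spink5 they were Slc16a11 (0.9929), Mdh1, Trp53i11, 5730409E04Rik and Foxj2 (0.9876). Slc16a11 stood at 16.3, 49.6 and 40.2 CPM in 2KO and 15.0, 29.9 and 25 CPM in control, the same order of libraries as Spink5 within each group. With 6 points a gene, 206 of 12518 genes compared reached r = 0.9 with Klk10 and 188 with Spink5, so these names describe likeness only.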

How the data were processed

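Each library has 1 deposited file of raw read counts by gene symbol, which the authors left unnormalized. Per the submitters' processing notes, the workflow names TopHat2 2.0.13, Cufflinks 2.2.1, HTSeq 0.6.1 and DESeq2 1.6.3 on build mm10. What each tool did, and the annotation, strand setting and read filters, are not given in the sources used. RNA was amplified into cDNA from 10 ng before library construction, per the labels. Without molecular identifiers, the floors cover counting error only. The intervals rest on the spread between libraries, which may in part be technical. The labels call the cells hair follicle cells, while the same protocol text describes an interfollicular gate.

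From the counts, genes were kept by filterByExpr and compared by the quasi-likelihood test of edgeR 4.0.16 (R 4.3.3), with TMM scaling and no covariate. The SE is the log2 fold change over the root of its F statistic, and 95% intervals use the test's degrees of freedom. In this fit, p-values were adjusted by Benjamini-Hochberg over the 14972 tested genes. In each alternative the adjustment ran over the genes kept by that setting, which differed in number. The test was checked on simulated data. Alternatives used DESeq2 1.42.0 and limma 3.58.1. Coordinates and exon lengths come from GENCODE vM21 (GRCm38, named mm10 by UCSC), where 97.1% of rows matched 1 gene. No libraries had identical values. The named genes are the 10 members, cluster genes with a count, list genes past the threshold or among the 3 most abundant of their list, the targeted genes, and the 5 genes most correlated with Spink5 and with the highest kallikrein, at a mean of at least 2 CPM; App, the substrate with the highest mean CPM, was at 269 ± 56.7 CPM in 2KO and 333 ± 20.8 CPM in control. One gene of the substrate list past the threshold is counted but not reported here. Beyond this rule, marker genes, Cdsn, Dsg1b and Dsc1 were named after their values were seen. The members and lists were chosen with earlier results of these data known.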

Additional observations from a re-analysis of the deposited data

How the results depend on the processing

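For the 8 tested members, 120 of 128 fits under the 16 alternatives kept direction and side of the threshold. Klk7 changed sign without 2KO replicate 1 (0.33), control replicate 2 (0.26) or control replicate 3 (0.10) and without replicate 3 of both groups (0.04), and Klk12 without 2KO replicate 3 (-0.06) and without replicate 3 of both groups (-0.02), as log2 fold changes that did not pass. With 1 library left out Klk7 ran from -0.59 to 0.33 and Klk12 from -0.06 to 0.63. The cause was not tested. Of the genes outside the family, Ctsl changed sign with Xist as a covariate (0.06) and without replicate 1 of both groups (0.26) and ran from -0.35 to 0.42 with 1 library left out, and Spint2 changed sign without replicate 1 of both groups (0.04) and ran from -0.14 to 0.07.

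Counts of calls moved by over 1.5 times as follows. DESeq2 called 1497 of 19888 genes higher and 771 lower in 2KO, against 989 and 362 of 14972 in edgeR. It called 1 of 10 members higher (Klk6). Xist as a covariate left 228 genes lower, 1 inhibitor higher and 0 substrates higher. Without replicate 1 of both groups, 1 member was higher (Spink5), 2 proteases lower, and 1 inhibitor and 0 substrates higher. Without replicate 3 of both groups, 309 genes were higher and 72 lower, and 0 proteases, 1 inhibitor and 0 substrates were higher. DESeq2 size factors in edgeR, and leaving out the ribosomal row Rn45s, each left 1 substrate higher. With 1 library left out, 615 to 854 genes were higher and 184 to 347 lower, and 0 to 1 members, 0 to 1 proteases, 1 to 3 inhibitors and 0 to 1 substrates were higher.

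The replicate numbers were not treated as pairing the samples. Deviations of same-numbered libraries from their group means correlated at 0.32, 0.1 and -0.13 for numbers 1, 2 and 3, so that not every library correlated best with its own number. With the replicate number as a block, 1142 genes were higher and 540 lower. Of the lists, 3 proteases and 1 substrate (Dsg1a) were lower, F2rl1 passed (edgeR adjusted p = 0.0481), F2r did not (0.0537), and no member passed. Spink5 then had a log2 fold change of 1.09 (SE 0.38 against 0.82 without the block, edgeR adjusted p = 0.103). Klk7 had -0.07 (SE 0.23 against 0.62, edgeR adjusted p = 0.914). The SE of Klk5 and Klk11 fell too, while those of Klk8, Klk10, Klk12 and Klk13 rose slightly. Depth limits Klk6 and Klk14, with 16 and 10 counts over the control group.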
